A study of Mus musculus with 31 samples.

Results

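The genes described here are 10 genes of the gonadotropin-releasing hormone (GnRH) neuron and of Kallmann syndrome, the human disorder that joins absent puberty with a lost sense of smell. They are Gnrh1, Prok2, Prokr2, Fezf1, Cxcl12, Cxcr4, Ackr3, Chd7, Tacr3 and Kiss1r, chosen by name with earlier results of these data known. All 10 were found by their Ensembl identifiers among the 47729 genes of the count table. RNA-seq was performed on 31 samples of nerve, each cut by laser microdissection and pooled from several cryosections, and called a piece below. The mouse embryos carried the Sox10:H2BVenus transgene on a bacterial artificial chromosome, so that the nuclei of cells with Sox10 expression fluoresce. Stages are in embryonic days (E). At E16.5 there were 4 libraries each of olfactory nerve (ON) from beneath the olfactory epithelium, of the outer and of the inner olfactory nerve layer (ONL) around the olfactory bulb, and 3 of trigeminal nerve (TN). At the earlier stages the sample labels give 4 libraries of E11.5 ON, 7 of E13.5 ON and 5 of E13.5 ONL. No group carried a mutation or a treatment, and the microdissected pieces also took in tissue beside the glia.

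The 16 early libraries come under 2 groupings, and both are used below. The study's own table of mean FPKM per group (counts scaled to gene length and library size) was matched to the count table after scaling each gene by 1 reference group, and all 7 of its means were exact averages of libraries (largest residual 0.000823%), but 10 early libraries were averaged under another group than their label gives. Replicates 2 to 5 of the E13.5 ONL label were averaged as E11.5 ON. The library labelled E13.5 ONL replicate 1 was averaged as E13.5 ON. The 4 libraries labelled E11.5 ON, with E13.5 ON replicate 1, were averaged as E13.5 ONL. Marker genes of olfactory bulb and forebrain, 10 genes summed, stood at 923.4 to 1193 CPM (the counts of a gene scaled to library size) in the 5 libraries averaged as E13.5 ONL and at 123 to 165.4 CPM in the other 11 early libraries. Glial marker genes, 8 genes summed, stood at 4618 to 7148 CPM in those 5 libraries and at 490.7 to 1049 CPM in the other 11. Groups of the averages are called "averaged" below and groups of the labels "labelled". At E16.5 both groupings are the same. More early pieces were taken than embryos, so some early libraries share an embryo. By the study's account, E11.5 ON came from 2 embryos and each E13.5 region from 4. Sharing within a group makes p-values too small, and sharing between regions that are not paired can make them too large. At E16.5 each region had 1 piece per embryo, but the regions came from the same embryos, and the main tests there treat all libraries as separate. Library totals ranged from 3512627 to 36705535 counts over all libraries and from 13379107 to 16800784 in the 12 E16.5 libraries other than TN. Sox10 itself was detected in every library, at 98.8 to 179.4 CPM in E16.5 ON, 564.3 to 710.8 CPM in outer ONL, 359.9 to 679.9 CPM in inner ONL and 304.8 to 379.8 CPM in TN.

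GnRH neurons arise at the olfactory placode and migrate along olfactory and terminal nerve axons, among the ensheathing glia, into the forebrain, where they later drive the pituitary gonadotropins. Prok2 is a secreted ligand of the receptor Prokr2, and loss of either disturbs olfactory bulb growth and GnRH neuron entry. Cxcl12 is a chemokine made along the nasal migratory path, Cxcr4 is its signalling receptor, and Ackr3 binds and clears it. Fezf1 and Chd7 act in the nucleus, and Tacr3 and Kiss1r are neuropeptide receptors of the circuit that later controls GnRH release.

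Gnrh1, the gene of the hormone (chromosome 14, 67745181 to 67749439, plus strand, mm10), varied widely between libraries of the same group. In the 4 E16.5 ON libraries its level was 132.8, 6.30, 129.9 and 15.3 CPM. In the outer ONL it was 0.0759, 6.70, 2.81 and 72.2 CPM, and in the inner ONL 0.877, 7.53, 4.11 and 21.4 CPM. The 3 TN libraries held 13, 8 and 21 counts, or 0.478, 0.297 and 0.791 CPM. Every ON library was thus above every TN library, while the ranges of ON, outer ONL and inner ONL overlapped. Gnrh1 was higher in ON than in TN, by 7.14 on the log2 scale (SE 1.74, edgeR adjusted p = 0.00519), and above TN in the outer ONL by 5.34 (SE 1.64, adjusted p = 0.0192). The outer ONL to TN call was lost when outer ONL replicate 4 or any 1 TN library was left out (log2 differences from 2.66 to 5.74, adjusted p from 0.0512 to 0.159). Outer ONL and ON did not pass the test (log2 difference -1.81, SE 1.14, adjusted p = 0.284), with a call only when outer ONL replicate 4 was left out (-4.49, adjusted p = 0.0123). In a bulk sample, fewer GnRH neurons and less RNA per neuron cannot be told apart.

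The same spread was seen at the early stages. In the 7 libraries averaged as E13.5 ON, Gnrh1 ranged from 0.324 to 344 CPM with a median of 3.90 CPM, and in the 5 averaged as E13.5 ONL from 1.66 to 301.6 CPM with a median of 63.9 CPM. The 4 libraries averaged as E11.5 ON were all low, at 0.666, 1.99, 0.209 and 0.355 CPM. By the averaged groups Gnrh1 rose from E11.5 ON to E13.5 ON by 6.75 on the log2 scale (SE 1.89, adjusted p = 0.00572), although 2 of the 7 E13.5 libraries lay within the E11.5 range. By label the difference was -0.29 (SE 1.58, adjusted p = 0.932), so the call rests on the grouping, and both p-values are over pieces of which some share an embryo. Gnrh1 spanned 1063-fold between the lowest and the highest library averaged as E13.5 ON, whereas Ackr3 spanned 1.998-fold and Cxcr4 1.53-fold in the same 7 libraries.

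**Figure D1:**
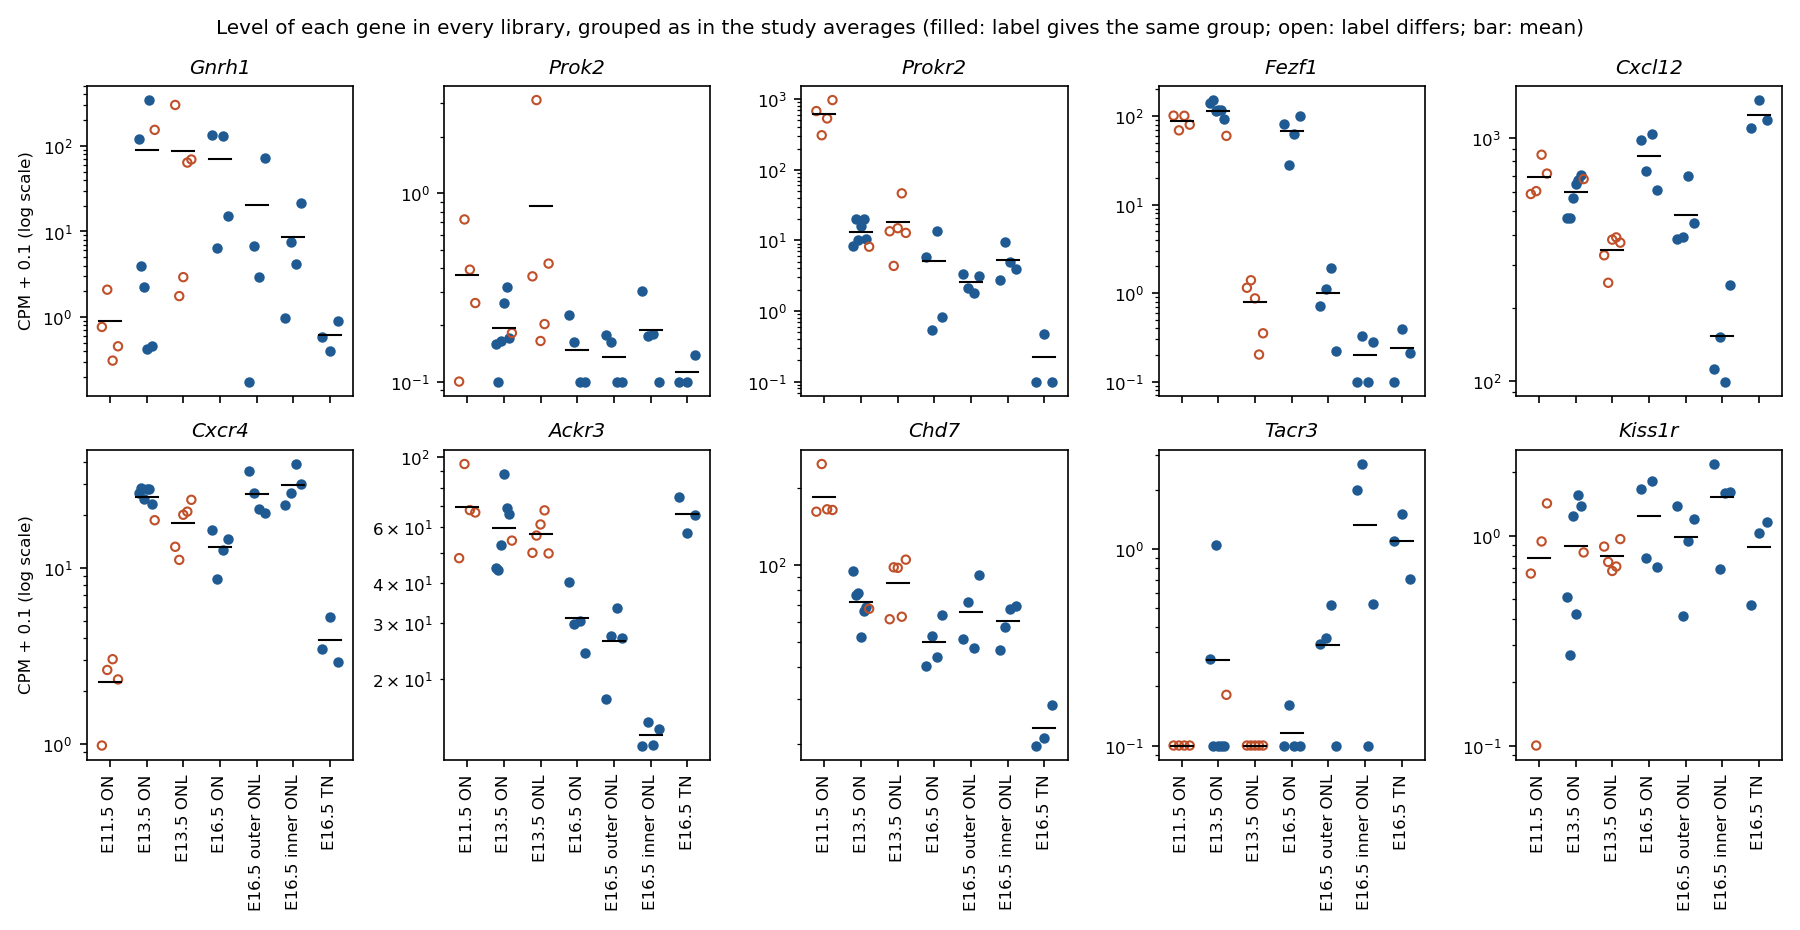
Level of each of the 10 genes in every library, in CPM plus 0.1 on a log scale (each panel has its own axis). Columns are the groups of the study's averages, filled points are libraries whose label gives the same group, open points are libraries whose label differs, and bars are group means; Prokr2 stands at 308.8 to 972.8 CPM in the 4 libraries averaged as E11.5 ON, Fezf1 is high in ON and near 0 in ONL, and Gnrh1 is spread within groups.

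Of 12215 genes with a symbol and a mean of at least 5 CPM, those whose level followed Gnrh1 most closely over the 31 libraries were Stc1, a secreted glycoprotein (Pearson r = 0.649 of log2(CPM + 1)), Fgf14 (r = 0.610) and Isl1 (r = 0.603). Isl1 is a LIM homeodomain transcription factor known from GnRH neurons, and also from other neurons of the cranial ganglia. Isl1 was at 26.5 CPM in the labelled E11.5 ON library with 301.6 CPM of Gnrh1, and at 27.4 CPM in the E13.5 ON library with 344 CPM. In E16.5 ON it was at 7.27 and 7.36 CPM in the pair of libraries with high Gnrh1 and at 0.309 and 1.38 CPM in the other pair. The 4 libraries averaged as E11.5 ON stood apart, with Isl1 at 5.46, 15.5, 5.15 and 39.1 CPM and Gnrh1 at 1.99 CPM or less. Over the 27 libraries other than these, chosen after the values were seen, r was 0.916. Over all libraries but the 4 highest in Gnrh1, a set that keeps the 4 averaged as E11.5 ON, r for Isl1 was 0.384. These points share libraries and depth, and r is given as a description.

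**Figure D2:**
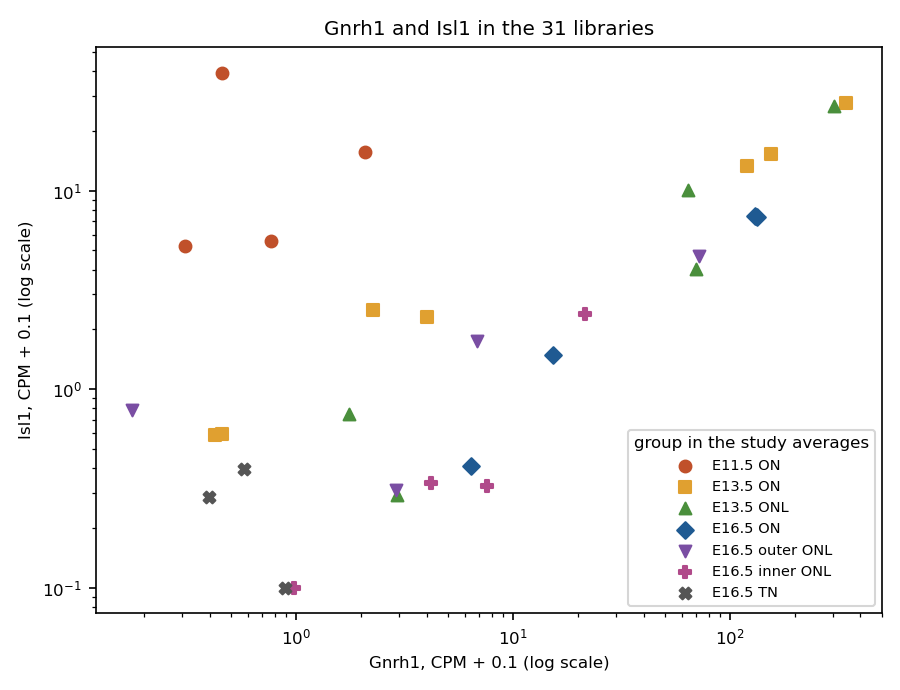
Gnrh1 (horizontal) against Isl1 (vertical) in the 31 libraries, both in CPM plus 0.1 on log axes, with colour and shape giving the group in the study's averages. Over all 31 libraries r was 0.603. The 27 libraries other than E11.5 ON, chosen after the values were seen, lie along a line (r = 0.916). The 4 of E11.5 ON lie above it, at Isl1 levels of 5.15 to 39.1 CPM with little Gnrh1.

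Prokr2, the prokineticin receptor, divided the early libraries into a high and a low set. It lies on the minus strand of chromosome 2 (132337733 to 132385447). Its level was 679.5, 308.8, 534.3 and 972.8 CPM in the 4 libraries averaged as E11.5 ON (labelled E13.5 ONL replicates 2 to 5). The other 12 early libraries held 4.25 to 46.3 CPM, so the 2 sets of libraries did not overlap. By the averaged groups Prokr2 fell by 5.56 on the log2 scale from E11.5 ON to E13.5 ON (SE 0.577, edgeR adjusted p = 1.11e-08, over pieces of which some share an embryo). By label the same libraries made Prokr2 higher in E13.5 ONL than in E13.5 ON by 5.17 (SE 0.74, adjusted p = 8.11e-05), and the averaged groups gave 0.49 for that comparison (SE 0.523, adjusted p = 0.533). At E16.5 it was low everywhere, at 5.64, 0.432, 13.4 and 0.717 CPM in ON, 3.26, 2.02, 1.68 and 3.05 CPM in outer ONL, and 2.63, 9.25, 4.83 and 3.82 CPM in inner ONL. TN held 0, 10 and 0 counts, the 10 counts being 0.371 CPM. The lowest ON library, replicate 2, held 7 counts, so its place above TN replicate 2 rests on scaling to depth. Both ON and outer ONL were above TN in every library, by 5.34 (SE 1.2, adjusted p = 0.00286) and by 4.28 (SE 1.18, adjusted p = 0.0101). All of the TN counts of Prokr2 were in replicate 2, and leaving out 1 library at a time gave 4.16 to 9.41 for ON and 3.76 to 8.41 for outer ONL, the highest in both without TN replicate 2, when TN stood at 0 counts and the fitted value is no bound. Across the ONL of both stages Prokr2 was lower at E16.5 under either grouping, by -2.88 averaged (SE 0.692, adjusted p = 0.00119) and by -7.63 labelled (SE 1.08, adjusted p = 3.1e-06). The labelled value takes in the 4 libraries averaged as E11.5 ON, so the 2 values compare unlike libraries.

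The ligand gene Prok2 (chromosome 6, 99711299 to 99726392, minus strand) was at 3 counts or fewer in 26 of the 31 libraries and passed no filter on low counts. Its total over all libraries was 109 counts, of which 42 fell in 1 library, labelled E11.5 ON replicate 2. In TN it had 0, 0 and 1 counts and in E16.5 ON 2, 1, 0 and 0 counts. Prok2 was not detectable above 3 counts in any E16.5 library at this depth, and no fold is given for it there. It overlaps Gm26748 on the opposite strand, which reached 10 counts at most.

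Ppp1r17 (r = 0.935) and the urea-cycle enzyme Arg1 (r = 0.912) had the profiles closest to Prokr2 over the 31 libraries. Without the 4 libraries highest in Prokr2 these values were 0.799 and 0.717. The promoter of Prokr2 is shown because its levels divided the early libraries without overlap, and that of Fezf1 because it had the largest difference of the 9 tested genes between outer ONL and ON. Sequences are from RefSeq (GRCm38.p6), 5′ to 3′ on the minus strand, and end 1 base before the gene start; 8 of the 10 genes had an entry. Capitals mark matches to the E-box letters CANNTG, which read the same on both strands.
Prokr2, chr2:132385448-132385697: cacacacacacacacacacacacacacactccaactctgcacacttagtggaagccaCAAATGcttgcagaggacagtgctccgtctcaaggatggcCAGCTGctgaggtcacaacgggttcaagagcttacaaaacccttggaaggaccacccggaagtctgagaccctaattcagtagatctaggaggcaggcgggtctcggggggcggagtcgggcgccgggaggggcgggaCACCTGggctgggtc
Fezf1, chr6:23248363-23248514: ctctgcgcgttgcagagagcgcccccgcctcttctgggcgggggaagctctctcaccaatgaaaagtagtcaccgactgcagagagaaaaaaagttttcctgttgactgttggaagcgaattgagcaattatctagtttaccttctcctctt
The 250 bases of Prokr2 held 3 matches. Of 32851 promoters, 66.2% held at least 1 match in a window of that length and 12.2% held at least 3. The 152 bases of Fezf1 held 0 matches, and 49.7% of promoters held at least 1 in that length. A match is a run of letters in the window and does not show binding.

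Fezf1, a zinc finger repressor needed for olfactory axons to enter the bulb, divided nerve from nerve layer. In E16.5 ON it was at 80.9, 27.9, 62.7 and 99.3 CPM. In outer ONL it was at 0.607, 1.01, 1.82 and 0.122 CPM, in inner ONL at 0, 3, 0 and 3 counts, and in TN at 0, 8 and 3 counts. The lowest ON library was thus far above the highest of the other 11. Fezf1 was lower in outer ONL than in ON by -6.32 on the log2 scale (SE 0.61, edgeR adjusted p = 9.96e-07), and higher in ON than in TN by 8.97 (SE 0.814, adjusted p = 5.01e-07). Outer ONL was higher than TN by 2.65 (SE 0.86, adjusted p = 0.0255), with ranges that overlapped. All inner ONL libraries were at 3 counts or fewer, and outer ONL was at least 4.22-fold higher against that floor of 3 counts per library (adjusted p = 0.0391). Without outer ONL replicate 3 that bound was 2.75-fold, and outer ONL replicate 4 lay within the inner ONL range. The outer ONL to TN call was lost without outer ONL replicate 2 or 3 or TN replicate 1 or 3 (adjusted p from 0.0511 to 0.0978), and the inner to outer ONL call was lost without outer ONL replicate 2 or 3 or any 1 inner ONL library (adjusted p from 0.0553 to 0.142).

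Early on the same division was present in the averaged groups, with p-values that are unreliable where pieces share an embryo. Fezf1 was at 68.9 to 101.1 CPM in the 4 libraries averaged as E11.5 ON, at 59.7 to 151.6 CPM (median 115.8) in the 7 of E13.5 ON and at 0.102 to 1.30 CPM in the 5 of E13.5 ONL. E13.5 ONL was lower than E13.5 ON by -7.47 (SE 0.513, adjusted p = 1.95e-12), and E13.5 ON differed from E11.5 ON by 0.38 (SE 0.351, adjusted p = 0.426). By label the ONL to ON difference at E13.5 was -0.35 (SE 0.592, adjusted p = 0.718), and E13.5 ON was higher than E11.5 ON by 7.003 (SE 0.982, adjusted p = 7e-05). The library labelled E13.5 ON replicate 1, averaged as E13.5 ONL, had 0.251 CPM where the other 6 of its label had 93.0 to 151.6 CPM.

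The gene closest to Fezf1 in profile was C130093G08Rik (r = 0.992, n = 31), a transcript on the plus strand of the same chromosome 6 (23251133 to 23253358). It starts 2771 bases from the start of Fezf1, which reads the other way (23245044 to 23248362), so the pair lies head to head. Sgpp2, a sphingosine phosphate phosphatase (r = 0.984), and the tight junction gene Cldn7 (r = 0.977) came next, on other chromosomes. Without the 4 libraries highest in Fezf1 the 3 values were 0.990, 0.980 and 0.973. Marker genes of olfactory epithelium and olfactory receptor neurons, 11 genes summed, ran from 682.2 to 1072 CPM in E16.5 ON, 134.4 to 461.1 CPM in outer ONL, 705.7 to 1344 CPM in inner ONL and 377.9 to 478.9 CPM in TN, and 1 of the 11 was at 3 counts or fewer in all TN libraries. The sum hides a split. In inner against outer ONL, 3 of the 11 were higher and 5 lower (median log2 difference -1.2), beside 17.7% of all genes called. The part of these markers in the Fezf1 levels was not tested. The paper counts Fezf1 among candidates checked by in situ hybridization and seen in neither ensheathing glia nor Schwann cells.

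The chemokine gene Cxcl12 was the most abundant of the 10 per kilobase of exon in every E16.5 group other than ON. Its level was 1099, 1430 and 1181 CPM in TN, 983.7, 730.8, 1033 and 612.1 CPM in ON, 384.7, 391.6, 696.5 and 447 CPM in outer ONL, and 111.8, 151.8, 99.4 and 247.4 CPM in inner ONL. The level thus stepped down from TN through ON and outer ONL to inner ONL, and ON and outer ONL overlapped in range. Outer ONL was lower than ON by -0.86 on the log2 scale (SE 0.262, edgeR adjusted p = 0.021), lower than TN by -1.34 (SE 0.28, adjusted p = 0.00131) and above inner ONL, which was lower by -1.62 (SE 0.268, adjusted p = 0.000504). ON and TN did not pass the test (log2 difference -0.48, SE 0.28, adjusted p = 0.231). The outer ONL to ON call was lost without ON replicate 1 or 3 or outer ONL replicate 1, 2 or 4 (adjusted p from 0.0521 to 0.082). Mesenchyme and meninges markers, 9 genes summed, followed the same order, at 24080 to 28390 CPM in TN, 9546 to 16540 CPM in ON, 5677 to 10880 CPM in outer ONL and 932.7 to 2187 CPM in inner ONL, and their part in the Cxcl12 levels was not tested. Col8a2, a collagen (r = 0.950), Fibin (r = 0.931) and the collagen receptor Ddr2 (r = 0.925) had the closest profiles.

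Its receptor Cxcr4 ran the other way. It was at 16.4, 8.58, 12.5 and 14.6 CPM in ON, at 35.6, 26.6, 21.7 and 20.5 CPM in outer ONL, at 22.7, 26.8, 38.9 and 29.8 CPM in inner ONL and at 3.35, 5.15 and 2.83 CPM in TN. No outer ONL library overlapped with ON, and no TN library overlapped with either. Cxcr4 was higher in outer ONL than in ON by 0.93 (SE 0.251, edgeR adjusted p = 0.0101), and higher than in TN by 2.81 in outer ONL (SE 0.299, adjusted p = 1.61e-06) and by 1.87 in ON (SE 0.29, adjusted p = 0.00011). Inner and outer ONL did not pass the test (log2 difference 0.22, SE 0.247, adjusted p = 0.651). Among the early libraries the 4 averaged as E11.5 ON were low, at 0.879, 2.53, 2.93 and 2.23 CPM, and the 7 averaged as E13.5 ON held 18.6 to 28.5 CPM. That rise was 3.58 on the log2 scale in the averaged groups (SE 0.3, adjusted p = 1.93e-10) and 0.66 by label (SE 0.461, adjusted p = 0.365). From E13.5 ON to E16.5 ON it fell by 0.98 averaged (SE 0.259, adjusted p = 0.005) and by label was at -1.02 (SE 0.466, adjusted p = 0.109). Notch2 (r = 0.881), Tet1 (r = 0.851) and Kctd12 (r = 0.846) were the closest in profile.

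Ackr3, the scavenger receptor for Cxcl12, was highest in TN at E16.5, with 74.8, 57.4 and 65.3 CPM. ON held 40.3, 29.7, 30.3 and 24.1 CPM, outer ONL 17.2, 27.1, 33.4 and 26.9 CPM and inner ONL 12.3, 14.6, 12.3 and 13.9 CPM. TN was above every other library and inner ONL below every other, while ON and outer ONL overlapped (log2 difference -0.30, SE 0.198, edgeR adjusted p = 0.303). Ackr3 was lower than in TN by -1.30 in outer ONL (SE 0.211, adjusted p = 0.000131) and by -1.001 in ON (SE 0.21, adjusted p = 0.00169), and lower in inner than in outer ONL by -0.95 (SE 0.202, adjusted p = 0.00314). Its fall in ON from E13.5 to E16.5 was called under both groupings, at -0.96 averaged (SE 0.196, adjusted p = 0.000429) and -0.94 labelled (SE 0.201, adjusted p = 0.00108), from a mean of 59.8 CPM ± 15.7 (SD, n = 7, averaged) to 31.1 CPM ± 6.73 (SD, n = 4). The fall in ONL was likewise called under both, at -1.14 averaged (SE 0.208, adjusted p = 5.3e-05) and -1.34 labelled (SE 0.214, adjusted p = 1.86e-05), the latter mostly over libraries averaged as E11.5 ON. Hmga2 (r = 0.916), Peg10 (r = 0.916) and Nradd (r = 0.899) were the closest in profile, and Cxcl12 and Ackr3 had r = 0.65 over the 31 libraries against -0.52 for Cxcl12 and Cxcr4. Per kilobase of exon the mean levels in TN were 151.2 for Cxcl12, 19.7 for Ackr3 and 2.09 for Cxcr4, and in inner ONL 18.7, 3.97 and 16.3.

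Chd7, a chromatin remodeller mutated in CHARGE and Kallmann syndromes, was present in every library at 19.5 to 249.3 CPM. The 4 libraries averaged as E11.5 ON were the highest, at 162.1, 249.3, 165.6 and 164.6 CPM, and the 7 averaged as E13.5 ON held 52.0 to 94.7 CPM, with no overlap. The fall was -1.36 on the log2 scale in the averaged groups (SE 0.185, edgeR adjusted p = 1.3e-06) and -0.08 by label (SE 0.241, adjusted p = 0.877). At E16.5 ON held 40.1, 52.9, 43.6 and 63.6 CPM, outer ONL 51.5, 71.8, 47.4 and 91.8 CPM, inner ONL 46.6, 57.2, 67.3 and 69.4 CPM and TN 19.5, 20.9 and 28.3 CPM. All olfactory libraries were above all TN libraries, with outer ONL higher by 1.55 (SE 0.255, adjusted p = 0.000151) and ON higher by 1.22 (SE 0.252, adjusted p = 0.00147). Outer ONL and ON overlapped (log2 difference 0.33, SE 0.226, adjusted p = 0.323). Chd7 was at a higher level in outer ONL in 4 of the 4 same-numbered pairs, and with the replicate number as a block the difference was 0.32 (adjusted p = 0.18). The chromatin remodeller Chd4 (r = 0.902), E330013P04Rik (r = 0.895) and the single-strand DNA binding protein gene Fubp1 (r = 0.887) had the closest profiles, and Chd7 and Prokr2 had r = 0.79.

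The neuropeptide receptors were scarce. Tacr3, the receptor of neurokinin B, was at 3 counts or fewer in 22 of the 31 libraries and never above 38 counts. TN held 27, 38 and 16 counts, ON 0, 1, 0 and 0, outer ONL 3, 4, 6 and 0, and inner ONL 28, 35, 0 and 7. The TN libraries were deeper than the others at E16.5, with 30221586 to 32508725 counts in all. Scaled to depth, mean Tacr3 was 1.23 CPM in inner ONL (0 to 2.61) and 1.00 CPM in TN (0.603 to 1.41). Against a floor of 3 counts per ON library, TN was at least 5.43-fold higher than ON (edgeR adjusted p = 0.00624). At E16.5 Tacr3 passed the filter on low counts only through TN and inner ONL libraries, so the filter and this p-value draw on the same TN values. In the early libraries it had 15 counts in E13.5 ON replicate 4, 3 in replicate 2, 1 in E13.5 ONL replicate 1 and 0 in the other 13, so that no fold is given between early groups. The averaged calls for Tacr3 between these groups were both lost without E13.5 ON replicate 4 (adjusted p = 0.0955 against E11.5 ON and 0.207 against E13.5 ONL), and the latter without 7 other libraries as well. Mlip (r = 0.712), Tmem38a (r = 0.662) and Hsd17b7 (r = 0.655) were closest in profile, falling to 0.435, 0.333 and 0.144 without the 4 libraries highest in Tacr3.

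Kiss1r, the kisspeptin receptor, was detected at 0 to 41 counts per library, with no group standing apart. E16.5 group means were 1.14 CPM ± 0.583 (SD, n = 4) in ON, 0.886 ± 0.422 (n = 4) in outer ONL, 1.43 ± 0.618 (n = 4) in inner ONL and 0.783 ± 0.365 (n = 3) in TN. It passed the test in none of the comparisons under either grouping, with log2 differences from -0.42 to 0.72. Kiss1r overlaps R3hdm4 on the opposite strand, which reached 4575 counts, and since no source used here states the strand setting, its counts are uncertain. Dcbld1 (r = 0.730), Poldip2 (r = 0.706) and Unc119b (r = 0.701) were the closest in profile.

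Set against all genes tested, 9 of the 10 genes passed the filter on low counts in each fit, all but Prok2. The 10 were chosen with earlier results of these data known, so the counts beside the background are a description only. Between outer ONL and ON at E16.5, 3 of the 9 passed edgeR's test (Cxcr4 higher, Fezf1 and Cxcl12 lower), beside 25.7% of 17800 genes. Of the 9, 7 passed between outer ONL and TN (5 higher and 2 lower, background 31.3%) and 7 between ON and TN (5 higher and 2 lower, background 26.9%). Gnrh1, Prokr2, Fezf1, Cxcr4 and Chd7 were the 5 higher genes in both, Ackr3 was lower in both, and Cxcl12 in the first and Tacr3 in the second made up the rest. Tacr3 passed the filter there only through TN and inner ONL libraries. These comparisons share the TN libraries. Between inner and outer ONL, 3 of the 9 passed, all lower (Fezf1, Cxcl12 and Ackr3), beside 17.7% of all genes. The median log2 difference of the 9 genes was -0.43, 1.55, 1.22 and -0.10 in these 4 comparisons, and that of all genes -0.05, -0.0039, 0.03 and -0.02.

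**Figure D3:**
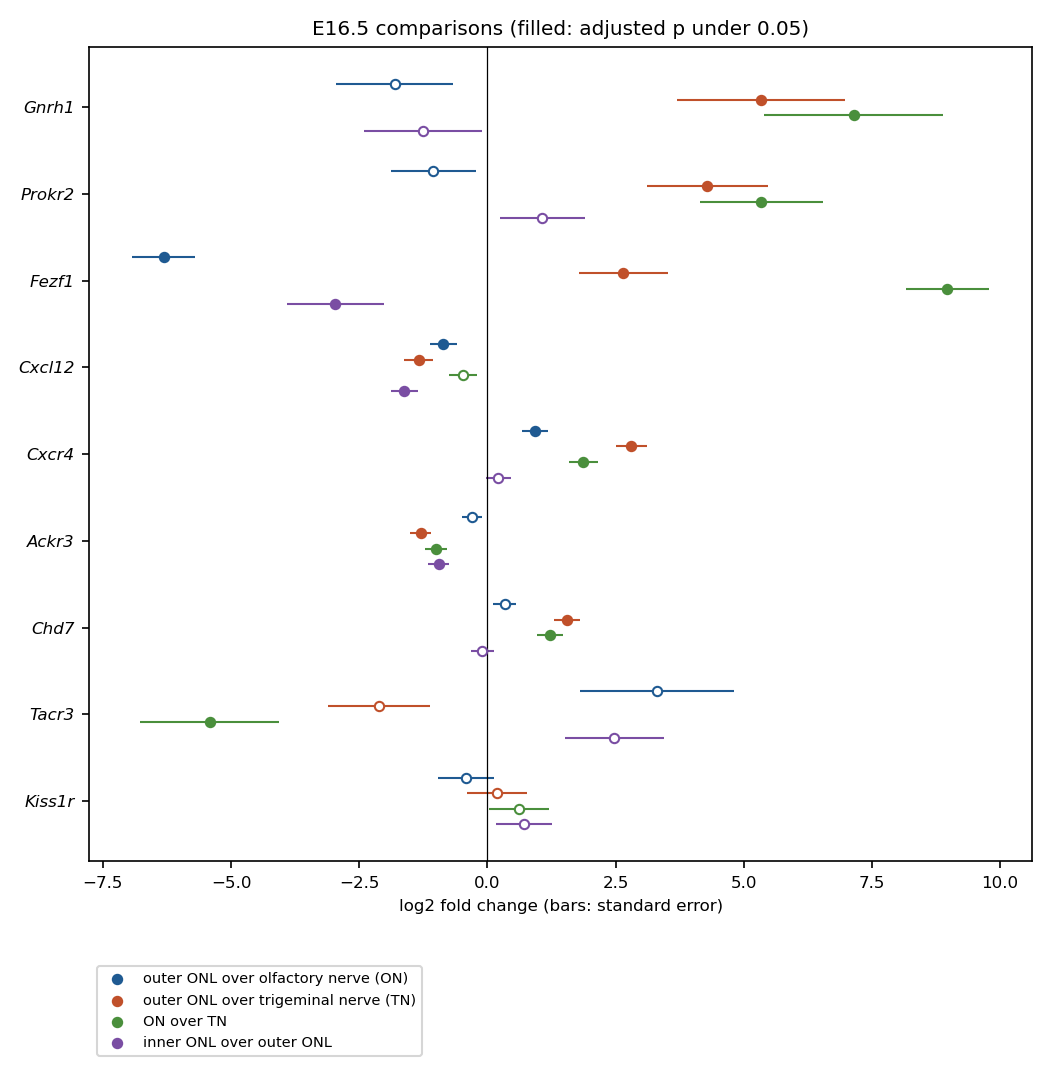
Log2 fold change of the 9 tested genes in the 4 comparisons at E16.5, with bars for the standard error, filled points where the adjusted p was under 0.05. Points right of 0 are higher in the region named first; Fezf1 lies at -6.32 for outer ONL over ON and at 8.97 for ON over TN.

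For the early libraries the calls depended on the grouping, and here too some pieces share an embryo, so that p-values are unreliable. Averaged, 5 of the 9 genes passed between E13.5 ON and E11.5 ON (Gnrh1, Cxcr4 and Tacr3 higher, Prokr2 and Chd7 lower, background 36.6%), and labelled, 2 passed (Fezf1 and Cxcl12 higher, background 17.5%), with 0 genes in common. The labelled Cxcl12 call was lost without E11.5 ON replicate 1 or 2 or E13.5 ON replicate 5, 6 or 7 (edgeR adjusted p from 0.0556 to 0.129). Between E13.5 ONL and E13.5 ON, 3 passed averaged (Fezf1, Cxcl12 and Tacr3 lower, background 31.5%) and 3 labelled (Prokr2 and Chd7 higher, Cxcr4 lower, background 17.7%), again with 0 in common. Cxcl12 was lower in the averaged E13.5 ONL by -0.78 (SE 0.194, edgeR adjusted p = 0.00209), at 253.5 to 389.6 CPM against 467.2 to 702.1 CPM.

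**Figure D4:**
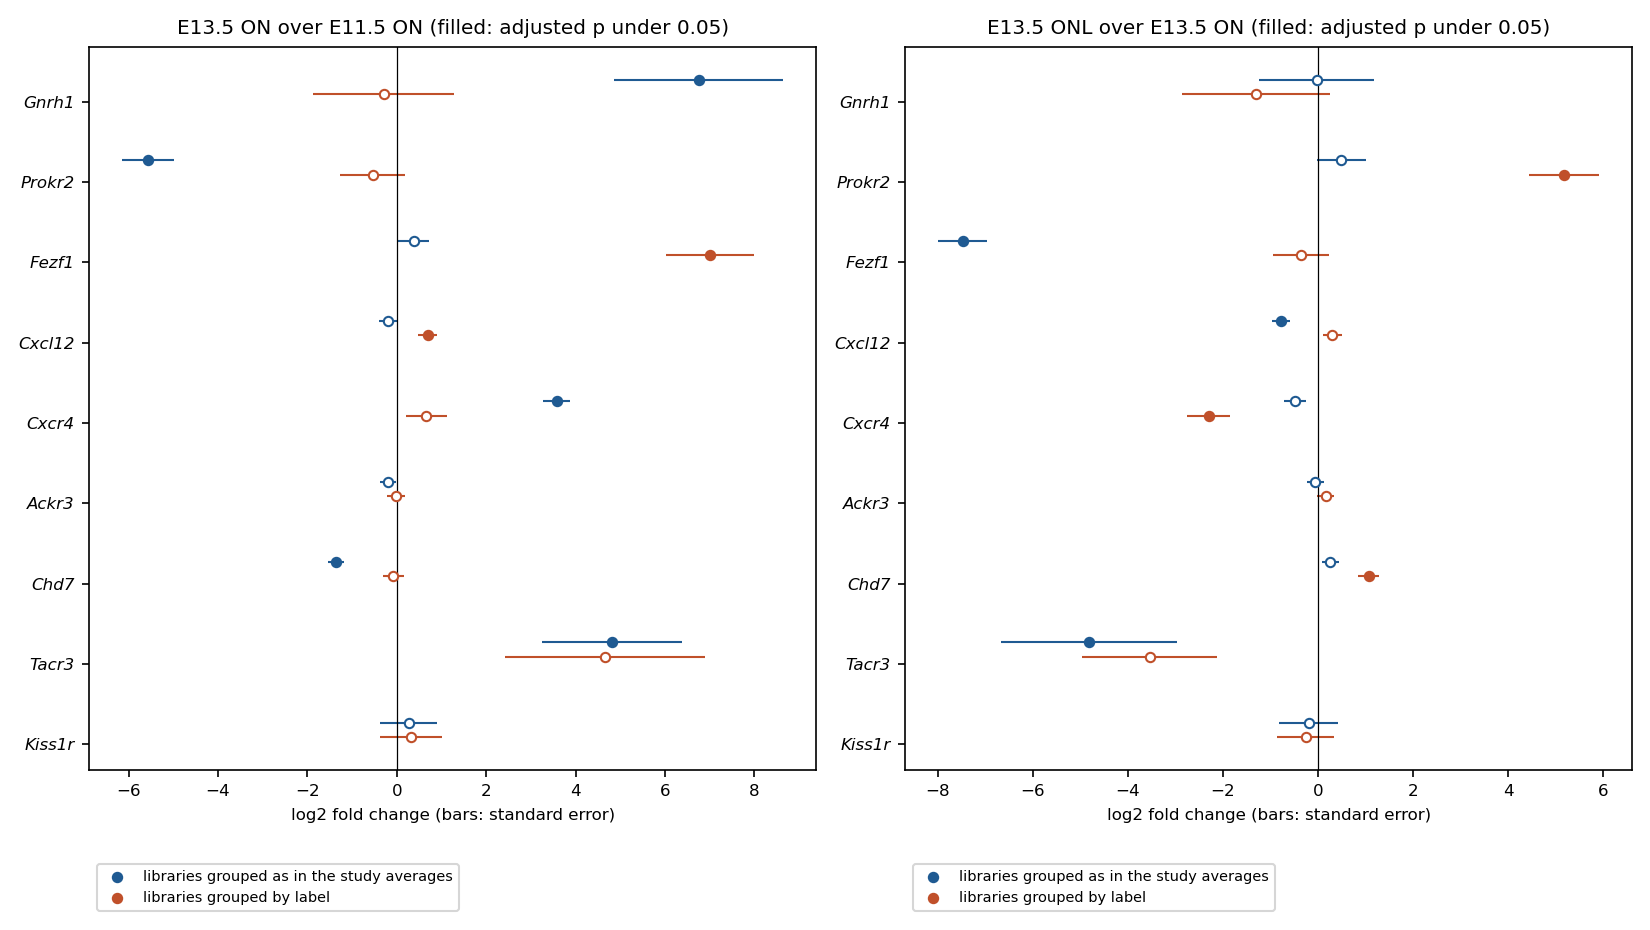
Log2 fold change of the 9 tested genes between E13.5 ON and E11.5 ON (left) and between E13.5 ONL and E13.5 ON (right), with libraries in averaged groups (blue) or by label (orange), bars for the standard error and filled points where the adjusted p was under 0.05. In neither comparison is a gene filled under both groupings.

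The comparisons across stages carry the same limit on their p-values. From E13.5 ON to E16.5 ON, 3 genes passed averaged (Cxcr4, Ackr3 and Chd7 lower, background 28.8%) and 2 labelled (Cxcl12 higher, Ackr3 lower, background 25.1%), with Ackr3 in common. The Chd7 change was -0.53 (SE 0.195, edgeR adjusted p = 0.0387), and it was lost without E13.5 ON replicate 2, 3 or 4 or E16.5 ON replicate 1, 2 or 3 (adjusted p from 0.0588 to 0.193). The labelled Cxcl12 change (0.58, SE 0.214, adjusted p = 0.0455) was lost without any 1 of 7 libraries, E13.5 ON replicates 1 to 4 and E16.5 ON replicates 1 to 3 (adjusted p from 0.0525 to 0.141). From E13.5 ONL to E16.5 outer ONL, 3 passed averaged (Tacr3 higher, Prokr2 and Ackr3 lower, background 41.9%) and 6 labelled (Cxcr4 and Tacr3 higher, Prokr2, Fezf1, Ackr3 and Chd7 lower, background 35.2%), and the 3 averaged genes were among the 6. The difference between ONL and ON was itself compared between E16.5 and E13.5. The Tacr3 calls across stages rest on few counts and were lost without any 1 of 7 of the 9 libraries compared, for E16.5 outer ONL against E13.5 ONL under either grouping. The change of the ONL to ON difference passed the test for 2 genes averaged (Cxcr4 and Tacr3, background 12.3%) and 5 labelled (those 2, with Prokr2, Fezf1 and Cxcl12, background 12.5%). For Cxcr4 the ONL to ON difference was higher at E16.5 by 1.501 averaged (SE 0.37, adjusted p = 0.00579) and by 3.32 labelled (SE 0.683, adjusted p = 0.00153). For Tacr3 it was lost without any 1 of 6 libraries averaged (adjusted p from 0.0539 to 0.0819) and of 11 labelled (0.0537 to 0.143), and for labelled Cxcl12 without E16.5 ON replicate 1 or outer ONL replicate 1 or 2 (0.0508 to 0.0651).

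Other genes of the disorder were described in the same way. Of 34 further genes tied to Kallmann syndrome or hypogonadotropic hypogonadism, 33 were in the table (Kiss1 is not analysed here) and 24 passed the filter. Of the 24, 3 were higher and 10 lower in outer ONL than in ON at E16.5, with a median log2 difference of -0.59. Of all 17800 genes tested there, 25.7% were called, 1826 higher and 2746 lower. Sox10, the glial transcription factor, was higher by 2.29 (SE 0.205, edgeR adjusted p = 4.59e-07) and the semaphorin receptor Plxnb1 by 0.84 (SE 0.195, adjusted p = 0.0036). The semaphorin receptor Nrp1 was lower by -1.87 (SE 0.249, adjusted p = 2.67e-05) and its ligand Sema3a by -1.57 (SE 0.35, adjusted p = 0.00278). Between outer ONL and TN the same list gave 6 higher and 9 lower (background 31.3%), and between ON and TN 8 higher and 5 lower (background 26.9%). Between inner and outer ONL it gave 4 higher and 5 lower (background 17.7%).

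Of 14 further genes known from migrating GnRH neurons, 13 passed the filter, and 1 was higher and 7 lower in outer ONL than in ON, with a median of -2.07. The background of 25.7% called, with more genes lower than higher, holds for this list and for the marker lists below between outer ONL and ON. The adhesion molecule Ncam1 was higher by 0.79 (SE 0.178, edgeR adjusted p = 0.00295), and the transcription factors Nhlh2 and Otx2 were lower by -5.21 (SE 0.679, adjusted p = 2.09e-05) and -5.04 (SE 0.535, adjusted p = 2.78e-06). Against TN, 8 were higher and 2 lower in outer ONL (background 31.3%) and 9 higher and 0 lower in ON (background 26.9%). In inner against outer ONL 6 were higher and 1 lower (background 17.7%). In that last comparison bulb and forebrain markers also moved, with 8 of 10 higher and 0 lower (median log2 difference 2.62), and mesenchyme and meninges markers had 0 of 9 higher and 9 lower (median -2.07). Several of these genes are also expressed by olfactory epithelium and receptor neurons, for which 1 of 11 markers was higher and 7 lower in outer ONL than in ON, Neurog1 by -4.91 (SE 0.791, adjusted p = 0.00018) and Neurod1 by -4.60 (SE 0.688, adjusted p = 8.71e-05), while the adhesion molecule Ncam2 was the higher one, by 1.27 (SE 0.23, adjusted p = 0.000522). Glial markers went the other way, with 6 of 8 higher and 0 lower, Npy by 5.56 (SE 0.352, adjusted p = 1.66e-08) and Fabp7 by 3.49 (SE 0.276, adjusted p = 1.39e-07). Bulb and forebrain markers had 3 of 10 higher and 2 lower, the homeobox gene Dlx1 higher by 3.98 and the glutamate transporter Slc1a3 by 3.52, and the transcription factors Sp8 and Emx2 lower by -2.86 and -1.45 (adjusted p from 3.48e-06 to 0.00604). Mesenchyme and meninges markers had 0 of 9 higher and 6 lower, with Twist1 at -2.09 and Prrx1 at -2.04 (adjusted p = 0.00192 and 2.46e-05). Mural cell markers had 0 of 6 higher and 6 lower, with the smooth muscle actin Acta2 at -4.40 and Pdgfrb at -2.004 (adjusted p = 0.00144 and 8.25e-06). Macrophage and blood markers had 0 of 7 higher and 5 lower, with Ptprc at -1.98 and Aif1 at -0.98 (adjusted p = 0.00522 and 0.00448). Endothelial markers had 0 of 7 higher and 2 lower, Pecam1 at -1.23 and Cdh5 at -0.93 (adjusted p = 0.0097 and 0.0178), the former lost without ON replicate 3 and the latter without ON replicate 1 or 3 or outer ONL replicate 1. Their part in the differences of the 10 genes was not tested.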

How the data were processed

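Per the labels and the study's methods, RNA from laser-microdissected tissue was amplified, sequenced and aligned by the authors to mm10 with TopHat2 2.1.0, and HTSeq counts per Ensembl gene were deposited. The strand setting of the counting is not given in the sources used here. A row without a gene name was dropped. The averaged groups were found by matching the study's mean FPKM per group to libraries over 1593 to 1669 genes per group. Every gene was tested with edgeR 4.0.16 in R 4.3.3 (TMM scaling, filterByExpr, quasi-likelihood test, Benjamini-Hochberg adjustment over all genes tested, threshold 0.05). E16.5 comparisons used the 15 E16.5 libraries alone, since a fit of all 31 libraries takes its spread partly from early groups of mixed libraries. Early comparisons used all 31 libraries, by label and by the study's averages. The SE of a log2 difference, also drawn as standard error bars, is its absolute value divided by the square root of edgeR's F statistic. It is not a spread between libraries. CPM used TMM factors over all 31. Replicates are pieces of tissue, each pooled from several sections. For early libraries, some of which share an embryo, p-values are unreliable. The main E16.5 tests did not pair regions cut from the same embryo. A group at 3 counts or fewer in every library gave a lower bound of a fold against 3 counts per library, which covers counting error only.

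The members and lists were chosen with earlier results of these data known. All 10 members are named, with the 2 largest called differences in each direction of each other list between outer ONL and ON, and the 3 genes of highest correlation for each tested member, of which 1 is not reported here. The replicate numbers were checked for pairing by the correlation of deviations from group means over 12161 genes. For outer ONL and ON at E16.5 same-numbered libraries had r from 0.224 to 0.487 in 4 pairs, so that the numbers pair them, and for the other comparisons at least 1 pair was at 0.1 or lower. Alternatives were DESeq2 1.42.0, other scalings and filters, other sets of libraries, a replicate block and leaving out each library.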

Additional observations from a re-analysis of the deposited data

Results flagged for a closer look

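Of 53 groups of 4 to 10 libraries tested, 5 had 1 library far from the others, and chance gives about 1 in 20 groups. Gnrh1 in the library labelled E13.5 ONL replicate 1 was at 154.2 CPM, against 0.209 to 1.99 CPM in the other 4 of its label. Prokr2 in the same library was at 8.04 CPM, against 308.8 to 972.8 CPM. Fezf1 in the library labelled E13.5 ON replicate 1 was at 0.251 CPM, against 93.0 to 151.6 CPM in the other 6. Both libraries are among the 10 early ones that the study averaged under another group than their label. Prok2 in E11.5 ON replicate 2 was at 3.03 CPM, against 0.0643 to 0.262 CPM, and Tacr3 in E13.5 ON replicate 4 at 0.954 CPM, against 0 to 0.176 CPM.

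The change of the ONL to ON difference from E13.5 to E16.5 passed edgeR's test for some genes, most of them by label alone. By label the log2 change was -6.14 for Prokr2 (adjusted p = 0.000792), -5.88 for Fezf1 (adjusted p = 0.000449), -1.09 for Cxcl12 (adjusted p = 0.0217), 3.32 for Cxcr4 (adjusted p = 0.00153) and 6.92 for Tacr3 (adjusted p = 0.038). In the averaged groups it was 1.501 for Cxcr4 (adjusted p = 0.00579) and 8.20 for Tacr3 (adjusted p = 0.0308). Averaged, the other genes were not called, with Prokr2 at -1.46 (adjusted p = 0.341), Fezf1 at 1.24 (adjusted p = 0.311) and Cxcl12 at -0.0042. The labelled values take in libraries averaged as E11.5 ON, so the 2 groupings compare unlike libraries. The values for Tacr3 are fitted against groups at 3 counts or fewer and give no bound.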

How the results depend on the processing

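The E16.5 differences of single members printed in the report, and of the named list genes between outer ONL and ON, kept their direction under every alternative run, except Kiss1r between outer ONL and TN (from -0.10 to 0.50 when 1 library was left out, turned without outer ONL replicate 1 or TN replicate 1). Counts over whole lists were not rerun. The counts of members called in the 4 comparisons at E16.5 stayed within 1.5 times. In a fit of all 31 libraries by label the calls were lost of Cxcr4 between outer ONL and ON (adjusted p = 0.187), of Gnrh1 against TN in outer ONL (0.159) and ON (0.0775) and of Fezf1 between outer ONL and TN (0.147) and inner and outer ONL (0.216), and of Pecam1 (0.16), Cdh5 (0.269) and Aif1 (0.209) between outer ONL and ON, the latter 2 also by the averaged groups. The early results depended mainly on the grouping. Averaged in place of labelled groups gave 5 called genes in place of 2 between E13.5 ON and E11.5 ON, 3 in place of 6 between E16.5 outer ONL and E13.5 ONL and 2 in place of 5 for the change of the ONL to ON difference. It turned the direction of Cxcl12 (-0.78 for E13.5 ONL against ON and -0.19 for E13.5 against E11.5 ON), Gnrh1 (6.75 for E13.5 against E11.5 ON) and Fezf1 (0.48 for E16.5 outer ONL against E13.5 ONL and 1.24 for the change of the ONL to ON difference).

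With a replicate block the 3 members called between outer ONL and ON at E16.5 were called again, and no other call of that comparison changed. In comparisons with early libraries, whose numbers do not pair them, the replicate block was fitted to the 2 groups alone. It called 0 members for E13.5 ONL against ON, where 4 of all 16583 genes tested were called. For E13.5 against E11.5 ON it called 0 members, beside 14 of 16712 genes. For E16.5 against E13.5 ON it called 1, beside 2225 of 17037 genes. It turned Fezf1 in the first (0.15) and Chd7 in the second (0.14). Ackr3, called between E16.5 and E13.5 ON under both groupings, was at -0.63 with that block (adjusted p = 0.0635). Scaling by total count, upper quartile scaling and no filter each gave 1 called gene in place of 2 between E16.5 and E13.5 ON. DESeq2 gave 1 in place of 2 for the averaged change of the ONL to ON difference.

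Over all alternatives, 1 to 3 genes were called for labelled E16.5 against E13.5 ON. The labelled change of the ONL to ON difference had 2 to 6, and the averaged E16.5 outer ONL against E13.5 ONL 2 to 5. Without E13.5 ON replicate 5, labelled Chd7 was also called between E16.5 and E13.5 ON (-0.68, edgeR adjusted p = 0.0447). Leaving out 1 library at a time gave 3 to 5 called genes for E13.5 ONL against ON, 1 to 2 for E13.5 against E11.5 ON and 1 to 2 for the averaged change. It turned the direction, none of it called, of Gnrh1, Chd7 and Prokr2 between labelled E13.5 and E11.5 ON (Gnrh1 from -1.54 to 1.77, turned without E11.5 ON replicate 1, Chd7 from -0.18 to 0.030, turned without E11.5 ON replicate 2 or 3 or E13.5 ON replicate 5, and Prokr2 from -0.89 to 0.34, turned without E11.5 ON replicate 4), of averaged Prokr2 between E13.5 ONL and ON (from -0.21 without E11.5 ON replicate 4 to 0.76) and of averaged Fezf1 between E16.5 outer ONL and E13.5 ONL (from -0.13 without outer ONL replicate 3 to 0.98). The causes were not tested. At this depth Prok2 was at 3 counts or fewer in 26 libraries, Tacr3 in 22, Fezf1 in 8 and Kiss1r in 3.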
